A study of Homo sapiens with 3 samples.

Results

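The human genes APOL1, APOL2, APOL3, APOL6, XAF1, TNFSF10 and PLSCR1 are induced by interferon in many cells, and most have been linked to cell death. They were followed by their annotated symbol, which gave 11 probe sets for the 7 genes, out of 19070 probe sets with 1 symbol (11963 genes) on the array. RNA came from HEK293T, a line of human embryonic kidney origin with the large T antigen of SV40. DNA was delivered with the lipid reagent Fugene HD, and all 3 samples, controls included, received dCas9VP160, a nuclease-dead Cas9 fused to a transcriptional activation domain. They differed in the guide RNA: sgTetOmut, a mutant of sgTetO with no target, sgTetO, directed to the TetO promoter of inducible transgenes, and sgIL1RN1~3, directed to the promoter of IL1RN. Each guide was measured on 1 array, so no value below has a replicate error, no test between guides was possible and no p-value is given. Cells without transfection or without dCas9VP160 were not analysed here, so every difference is one between guides. The genes were chosen by their log2 values on these same arrays, on which interferon genes were high with sgTetOmut, and their levels are therefore a description.

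Type I interferon binds a receptor at the cell surface and acts through JAK kinases on STAT proteins, which with IRF9 form a factor that binds GAAA-rich elements in the promoters of its target genes. Among those targets, APOL1 encodes a secreted protein that lyses trypanosomes, and APOL2, APOL3 and APOL6 encode relatives that stay inside the cell and bind lipids. XAF1 encodes a protein that binds XIAP, an inhibitor of caspases, and opposes it. TNFSF10 encodes TRAIL, a death ligand for TNFRSF10A and TNFRSF10B. PLSCR1 encodes a scramblase that moves phospholipids between the leaflets of a membrane and restricts some viruses.

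Promoter sequence was at hand in RefSeq (GRCh38.p14) for XAF1, PLSCR1 and TNFSF10, that is 3 of the 7 genes. The windows run from 250 bases before the annotated start to 20 bases after it, on the strand of the gene, and are shown because these genes gave 3 different patterns on the arrays: signal above background on sgTetOmut only, signal on all arrays, and none. Capitals mark pairs of GAAA with a spacer of 1 or 2 bases, on either strand.
XAF1 (chr17:6755796-6756065, plus strand): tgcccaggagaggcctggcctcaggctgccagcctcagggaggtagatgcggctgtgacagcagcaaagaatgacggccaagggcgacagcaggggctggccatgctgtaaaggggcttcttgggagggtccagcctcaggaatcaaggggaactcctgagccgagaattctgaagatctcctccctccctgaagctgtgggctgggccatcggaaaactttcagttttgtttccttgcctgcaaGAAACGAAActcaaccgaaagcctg
PLSCR1 (chr3:146544588-146544857, minus strand): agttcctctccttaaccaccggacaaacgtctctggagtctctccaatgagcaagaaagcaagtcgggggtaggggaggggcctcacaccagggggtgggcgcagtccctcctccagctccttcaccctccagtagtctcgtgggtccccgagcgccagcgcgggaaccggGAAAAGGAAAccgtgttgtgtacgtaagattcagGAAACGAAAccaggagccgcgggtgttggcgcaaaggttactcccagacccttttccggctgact
TNFSF10 (chr3:172523411-172523680, minus strand): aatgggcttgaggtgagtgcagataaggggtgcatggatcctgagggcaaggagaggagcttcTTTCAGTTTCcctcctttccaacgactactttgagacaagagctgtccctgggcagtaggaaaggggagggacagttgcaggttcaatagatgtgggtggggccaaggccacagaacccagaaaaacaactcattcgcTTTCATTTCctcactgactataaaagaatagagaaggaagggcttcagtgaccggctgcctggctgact

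The pair with 2 spacer bases, GAAANNGAAA, is the core of the interferon-stimulated response element. It was present in the PLSCR1 window, where it began 79 bases before the start, and in the TNFSF10 window on the opposite strand, where it began 187 bases before the start. It occurred in 3.3% of all 35116 promoter windows of this length. The pair with 1 spacer base, GAAANGAAA, was present in all 3 windows: from 5 bases before to 4 bases after the start of XAF1, and beginning 45 bases before the start of PLSCR1 and 49 bases before that of TNFSF10. It occurred in 2.9% of all windows. PLSCR1 and XAF1 each have a second annotated start: the window of the second PLSCR1 start holds the same pairs and that of XAF1 holds neither. The element TTCNNNGAA, which STAT dimers bind, was absent from the windows shown, was found after the second PLSCR1 start, and occurred in 7.05% of all windows. None of the 3 motifs overlapped another in these windows. A match gives the letters only, and binding was not measured.

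The deposited values are on a log2 scale, where a difference of 1 is 2-fold, and the authors had scaled the 3 arrays to almost equal distributions, so a difference is relative to the bulk of genes. The 27 probe sets for Bacillus subtilis transcripts served as a background scale. Their highest value was 3.29 on sgTetOmut and 3.40 on the other arrays, and a set at or under it was taken as not above background. By this measure 7 of the 11 member sets, from 5 genes, were above background on at least 1 array, against 74.9% of all named sets. The 4 sets of APOL2 and PLSCR1 were above it on all 3 arrays. The sets of APOL1, APOL6 and XAF1 passed on sgTetOmut alone, so APOL6 and XAF1, which also exceeded the limit of the other arrays, had to be highest there. The single APOL3 set and all 3 TNFSF10 sets passed on none. All 8 HEK293T markers that were listed were above background, among them NEFL, a neurofilament protein typical of these cells, at 10.06 to 10.42, while LHX1, a kidney transcription factor, was near it at 3.51 to 3.64.

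**Figure D1:**
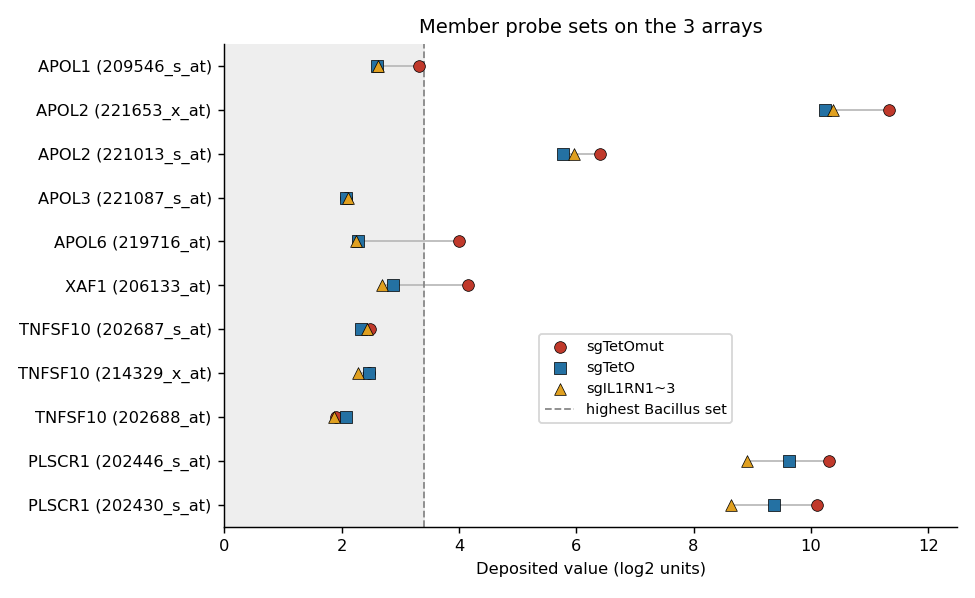
Deposited log2 values (horizontal axis) of the 11 member probe sets on the sgTetOmut (circles), sgTetO (squares) and sgIL1RN1~3 (triangles) arrays, 1 array each; the shaded area ends at 3.40, the highest Bacillus value. APOL2 and PLSCR1 lie above it throughout, APOL1, APOL6 and XAF1 on sgTetOmut only, and APOL3 and TNFSF10 on no array.

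The first question is how these genes differed between the control guides. APOL2, PLSCR1, APOL6 and XAF1 were lower with sgTetO than with sgTetOmut, and 3 of the 11 sets were at least 2-fold lower, 1 each of APOL6, XAF1 and APOL2, against 0.325% of all named sets. By any size, 8 of the 11 sets were highest on sgTetOmut, against 27.6% of all. The median difference over the 11 sets, those at background included, was -0.68 log2 units, against -0.01 over all named sets. No member set was 2-fold higher with sgTetO, against 0.0157% of all. The genes were chosen for this contrast, so nothing is read from these counts. The RNA was bulk, and fewer responding cells cannot be told apart from less RNA per cell.

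In the APOL family the levels followed no single pattern. APOL2 set 221653_x_at read 11.33 on sgTetOmut, 10.24 on sgTetO and 10.38 on sgIL1RN1~3. The sgTetOmut array was high, and the other arrays lay within 0.15 of each other. These values are 2.13-fold and 1.93-fold apart from sgTetOmut, so the first passed the 2-fold limit and the second fell just short of it. The other APOL2 set, 221013_s_at, read 6.40, 5.77 and 5.96 in the same order of arrays, that is 1.55-fold and 1.36-fold. Both APOL2 sets were highest on sgTetOmut and lowest on sgTetO. The suffix _x_at marks a set whose probes can also match other transcripts, and the APOL genes are close paralogs, so the share of other family members in the first set is uncertain.

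APOL6 was above background on sgTetOmut only. Its set 219716_at read 4.0 on sgTetOmut, 2.27 on sgTetO and 2.24 on sgIL1RN1~3. The measured differences were -1.73 and -1.76 log2 units, but both lower values lay within the Bacillus range. Against the highest Bacillus value the fold is at least 1.51 for either array.

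APOL1, by set 209546_s_at, read 3.31 on sgTetOmut, 2.60 on sgTetO and 2.61 on sgIL1RN1~3. The sgTetOmut value was 0.02 above the highest Bacillus value of its own array and under that of the others, so no fold is given. APOL3, by set 221087_s_at, read 2.08, 2.08 and 2.10 and was not above background anywhere. APOL5, the other family member measured, read 2.23 on each array and was not above background either.

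XAF1, by set 206133_at, read 4.16 on sgTetOmut, 2.88 on sgTetO and 2.68 on sgIL1RN1~3. Only the sgTetOmut value was above background. The measured differences were -1.29 and -1.48, and against the highest Bacillus value the fold is at least 1.69 for either array.

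TNFSF10 was not above background with any guide. Its set 202687_s_at read 2.49 on sgTetOmut, 2.33 on sgTetO and 2.42 on sgIL1RN1~3, set 214329_x_at read 2.46, 2.46 and 2.28, and set 202688_at read 1.90, 2.08 and 1.87. The sets had no common order of the arrays. A difference in TRAIL transcript was thus not detectable at this signal. The promoter window of TNFSF10 printed above holds both kinds of GAAA pair, as that of PLSCR1 does.

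PLSCR1 was bright on all 3 arrays. Set 202446_s_at read 10.31 on sgTetOmut, 9.63 on sgTetO and 8.91 on sgIL1RN1~3, and set 202430_s_at read 10.11, 9.38 and 8.64. Both sets were highest on sgTetOmut, lower on sgTetO and lowest on sgIL1RN1~3, in steps of nearly equal size. From sgTetOmut to sgTetO the sets differed by -0.68 and -0.73 log2 units (1.61-fold and 1.66-fold). From sgTetO to sgIL1RN1~3 they differed by a further -0.72 and -0.74 (1.64-fold and 1.67-fold). Together the steps gave 2.64-fold and 2.77-fold between sgTetOmut and sgIL1RN1~3.

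**Figure D2:**
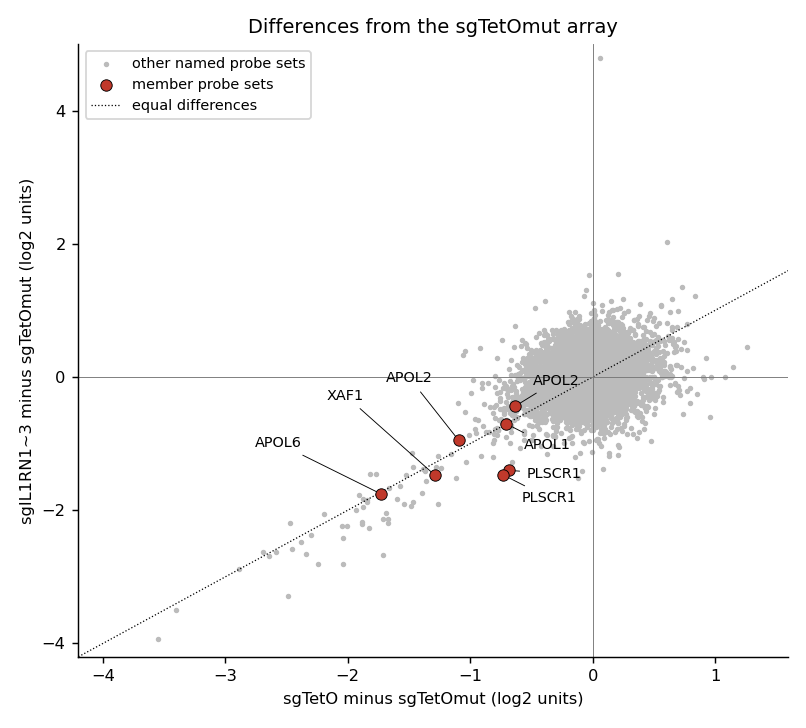
Log2 differences of sgTetO (horizontal axis) and sgIL1RN1~3 (vertical axis) from sgTetOmut for named probe sets above background on at least 1 array; the 7 member sets are marked and the dotted line marks equal differences. Both PLSCR1 sets lie below the line, at -0.68 and -0.73 across and -1.40 and -1.47 down, and the APOL2 sets lie above it; APOL1, APOL6 and XAF1 were at background on sgTetO and sgIL1RN1~3, so their places have no exact size. The axes share the sgTetOmut array.

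The second question is how the genes differed with the IL1RN guides. Against sgTetOmut, 4 of the 11 sets were at least 2-fold lower on sgIL1RN1~3, both sets of PLSCR1 and those of APOL6 and XAF1, against 0.404% of all named sets, and none was 2-fold higher (0.121% of all). The median over the member sets was -0.70, against 0.00 over all named sets, but it is the difference of the APOL1 set, whose value on sgIL1RN1~3 was at background, and has no exact size. The 5' chip control sets of ACTB and GAPDH, which report RNA integrity and labelling, were 0.82 and 0.66 higher on sgIL1RN1~3 than on sgTetOmut, while their 3' sets differed by 0.07 and 0.03. Their part in these differences was not tested. This comparison shares its sgTetOmut array with the one above. With the limit applied to both arrays at once, 2 member sets were at least 2-fold above both on sgTetOmut, APOL6 and XAF1, against 0.294% of all. When values in the Bacillus range were raised to its upper end, so that each difference is a lower bound, none of the 11 was 2-fold above both other arrays (0.278% of all). The APOL2 set 221653_x_at alone then stayed 2-fold lower on sgTetO (0.299% of all), and the 2 PLSCR1 sets alone on sgIL1RN1~3 (0.372% of all).

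Set against sgTetO, a comparison without the sgTetOmut array but with an array of each comparison above, sgIL1RN1~3 was at least 2-fold apart in none of the 11 sets, against 0.168% of all named sets lower and 0.184% higher. The median difference over the member sets was -0.03, against 0.02 over all, but it is the difference of the APOL6 set, which was at background on both arrays. PLSCR1 differed most, with the values above, and its sets ranked 148 and 169 from the most negative difference among the 14288 named sets above background on some array. At a limit of 0.5 log2 units 2.53% of all named sets were lower on sgIL1RN1~3 than on sgTetO. The APOL2 sets were 0.15 and 0.19 higher on sgIL1RN1~3, and thus on the other side of 0 from PLSCR1. The 5' control sets of ACTB and GAPDH were 0.95 and 0.84 higher on sgIL1RN1~3 than on sgTetO, while their 3' sets differed by 0.06 and -0.01. Their part in the PLSCR1 difference was not tested.

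A step of at least 0.5 log2 units down from sgTetOmut to sgTetO and again down to sgIL1RN1~3, a limit set after the values were seen, was present in 9 of 19070 sets (0.0472%). Of these, 2 were the PLSCR1 sets. The other 7 belonged to IFI44, IFIH1, GBP1, HERC6, IFIT1 and IFI16, all interferon-induced genes. IFIH1, a cytosolic sensor of double-stranded RNA, read 9.39, 7.35 and 6.58, and IFI16, a DNA sensor, read 4.92, 4.27 and 3.64 by set 206332_s_at. In IFIH1 the first step, -2.04, was the larger, while in PLSCR1 and this IFI16 set the steps were nearly equal. The further sets did not all reach 0.5 in both steps. IFI16 set 208965_s_at had steps of -1.69 and -0.34, but its sgIL1RN1~3 value was at background, so its second step has no exact size. The second IFIH1 set, above background on all 3 arrays, had -0.91 and -0.28.

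**Figure D3:**
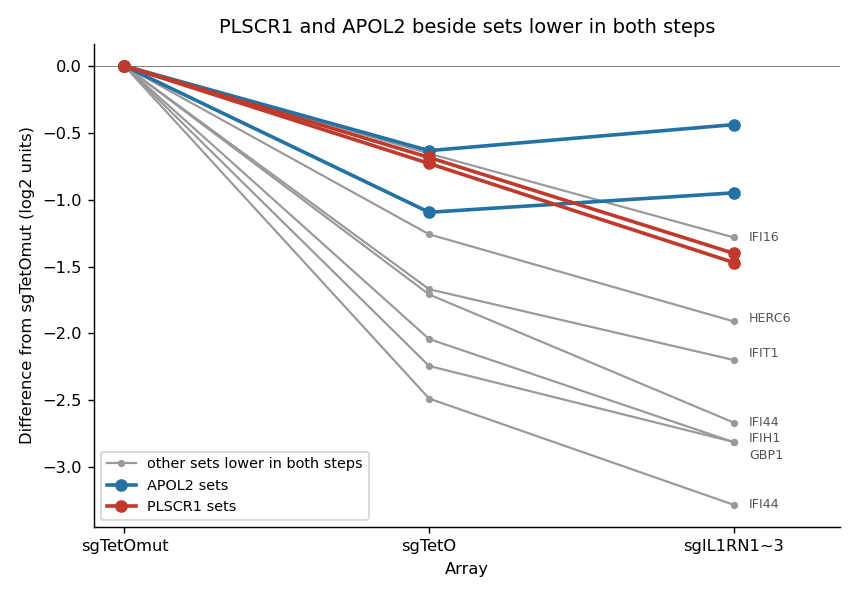
Log2 difference from sgTetOmut (vertical axis) on each array (horizontal axis) for the 2 PLSCR1 sets, the 2 APOL2 sets and the 7 further sets that were at least 0.5 lower in both steps. PLSCR1 ends at -1.40 and -1.47 on sgIL1RN1~3, while the APOL2 sets are lowest on sgTetO.

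The genes whose values on the 3 arrays, centred on their own mean, lay nearest to APOL2 and PLSCR1 were found by Euclidean distance in log2 units. For APOL2 they were LGALS3BP (distance 0.06), IRF9 (0.15) and SSX1 (0.16). For PLSCR1 they were IFI16 by set 206332_s_at (0.09), IL15 (0.23) and KLRA1P (0.25). The other IFI16 sets were unlike this one. On sgTetO, 208965_s_at and 208966_x_at lay -1.69 and -1.39 from sgTetOmut, against -0.66 in 206332_s_at. SSX1 and KLRA1P were above background on sgTetOmut only, so their profiles and distances are not exact. Profiles of 3 values can agree without any relation between the genes. The other 5 members were at background on 2 or 3 arrays, so their profiles are not known well enough for this.

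The neighbours on the chromosome show how local these differences were. On chromosome 22 the measured protein-coding genes lie in the order APOL6, APOL5, RBFOX2, APOL3, APOL2 and APOL1. RBFOX2, a splicing regulator between the APOL genes, read 9.42 on sgTetOmut, 9.35 on sgTetO and 9.52 on sgIL1RN1~3. MYH9, a non-muscle myosin next to APOL1, read 7.38, 7.23 and 7.38. Of the 6 measured genes that flank the cluster, 5 were above background, and they differed from sgTetOmut by -0.15 to 0.04 on sgTetO and by -0.13 to 0.23 on sgIL1RN1~3.

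PLSCR1 lies on chromosome 3 beside its paralogs PLSCR2 and PLSCR4. PLSCR4 read 7.21 on sgTetOmut, 7.27 on sgTetO and 6.96 on sgIL1RN1~3. PLSCR2 was not above background. The 4 flanking genes above background differed by -0.19 to 0.06 on sgTetO and by -0.25 to 0.12 on sgIL1RN1~3. Of the genes flanking XAF1 on chromosome 17, KIAA0753 and MED31 were above background. KIAA0753 read 6.74, 6.75 and 6.62, and MED31 read 5.24 on each array. Around TNFSF10, the 5 flanking genes above background differed by -0.46 to 0.17 on sgTetO and by -0.12 to 0.37 on sgIL1RN1~3, with TBL1XR1, a transcriptional cofactor, at both the lowest and the highest of these values (6.28, 5.83 and 6.65).

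**Figure D4:**
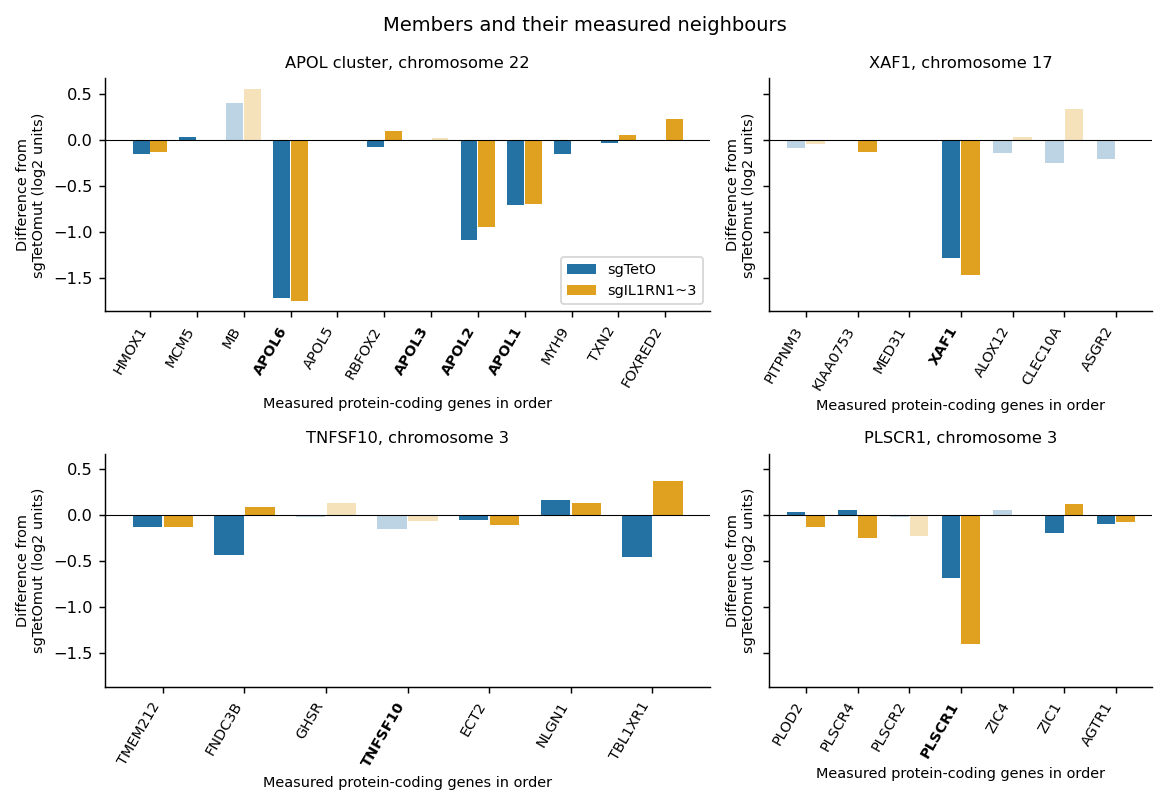
Log2 differences of sgTetO and sgIL1RN1~3 from sgTetOmut (vertical axis) for members (bold) and the 3 measured protein-coding genes on each side, in chromosomal order (horizontal axis, not to scale); pale bars were not above background on any array. RBFOX2 and MYH9, amid and beside the APOL genes, lie near 0, and so do the neighbours of PLSCR1 and XAF1 that were above background, while TBL1XR1 beside TNFSF10 lies at -0.46 and 0.37.

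The pathways in which these genes act were described by lists, with the brightest probe set for each gene. Of all 11963 genes, 0.41% were 2-fold lower and 0.0167% higher on sgTetO than on sgTetOmut, 0.476% lower and 0.117% higher on sgIL1RN1~3 than on sgTetOmut, and 0.109% lower and 0.109% higher on sgIL1RN1~3 than on sgTetO. For TRAIL signalling, 9 of 11 listed genes were measured and 7 were above background. None was 2-fold apart in any pair of arrays, and the median for sgTetO minus sgTetOmut was -0.08, against -0.01 over all genes. TNFRSF10B, a receptor of TRAIL, read 11.85, 11.83 and 11.92. The initiator caspases CASP10 and CASP8 read 6.79, 6.51 and 6.51, and 6.88, 6.82 and 6.51, and FADD, the adaptor between receptor and caspase, read 6.44, 6.33 and 6.38. By these sets TNFRSF10B, FADD, CASP8 and CASP10 were above background on every array, where the ligand was not. Further sets of the caspases were dimmer. The other CASP8 set (2.06, 2.06 and 1.88) and CASP10 sets 210708_x_at and 211888_x_at passed on no array. CASP10 set 210955_at passed on sgTetOmut only. The receptors TNFRSF10C and TNFRSF10D were not above background on any array, and TNFRSF10A was not among the 9 measured genes.

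Among inhibitor of apoptosis proteins, the family of the XAF1 partner XIAP, and their antagonists, 7 of 9 listed genes were measured. None was 2-fold apart. XIAP, the caspase inhibitor that XAF1 binds, read 4.18 on sgTetOmut, 4.13 on sgTetO and 4.05 on sgIL1RN1~3. BIRC2 read 7.22, 7.32 and 7.08, BIRC5 read 12.33, 12.13 and 12.34, and HTRA2, a protease that opposes these inhibitors, read 7.73, 7.65 and 7.77. The list's median was -0.05 for sgTetO minus sgTetOmut and 0.01 for sgIL1RN1~3 minus sgTetOmut.

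The BCL2 family (14 genes measured), the apoptosome and executioner caspases (8) and other death ligands and receptors (12) also held no gene 2-fold apart in any pair. Their medians for sgTetO minus sgTetOmut were -0.05, -0.01 and -0.03. BID, which links death receptors to mitochondria, read 8.03, 7.79 and 7.98, BCL2 read 6.85, 6.69 and 6.56, and BCL2L2 read 6.35, 6.17 and 6.28. APAF1, the core of the apoptosome, read 9.04, 9.14 and 9.10, while the nuclease DFFB read 8.81, 8.71 and 9.18 and its inhibitor DFFA 8.72, 8.80 and 8.76. Among death receptors, TNFRSF21 read 8.67, 8.33 and 8.59.

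Of the inflammatory caspases and pyroptosis genes, 10 of 12 were measured and 5 were above background. CASP4, a caspase that senses bacterial lipopolysaccharide in the cytosol, read 5.35 on sgTetOmut, 4.65 on sgTetO and 4.70 on sgIL1RN1~3, that is -0.70 and -0.65 from sgTetOmut, under the 2-fold limit. Its other set was not above background. CARD8, an inflammasome sensor, differed the other way, at 8.86, 9.03 and 9.30. Of the scramblases and flippases, 7 of 12 were measured and none was 2-fold apart, with a median of 0.06 for sgTetO minus sgTetOmut.

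**Figure D5:**
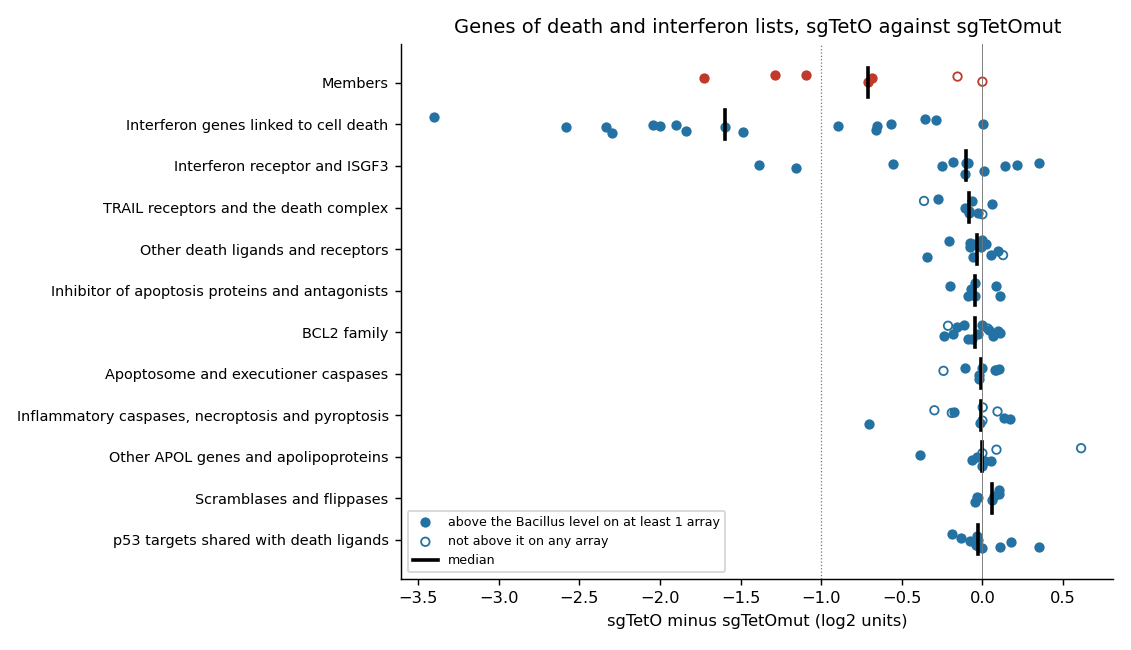
Log2 difference sgTetO minus sgTetOmut (horizontal axis) of each measured gene in 12 lists (rows), with the median of each list as a bar; open circles were not above background on any array and the dotted line marks a 2-fold difference. Most members and most interferon genes linked to cell death lie to the left, the second list with a median of -1.60. APOL3 and TNFSF10, not above background, lie at 0 and -0.15. The lists of death receptors, caspases and BCL2 proteins have medians near 0, with CASP4 at -0.70.

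Other interferon genes that have been linked to cell death were lower in the same comparison. Of 21 listed, 17 were measured, and 16 had their highest value on sgTetOmut by any size, against 27.6% of all named probe sets. Of the 17, 10 were 2-fold or more lower with sgTetO, against 0.41% of all genes. The list's median was -1.60 for sgTetO and -1.83 for sgIL1RN1~3, each against sgTetOmut. The same counting by gene gave 3 of the 7 members for sgTetO. IFI27, a mitochondrial protein, read 6.72, 4.89 and 4.88, and IFI6, a membrane protein with antiviral activity, read 10.58, 8.68 and 8.81. SP100, a nuclear body protein, read 7.62, 5.32 and 5.24. These lists, too, were written with results of these arrays known.

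The machinery upstream differed less evenly. IRF9, the DNA-binding partner of the STAT proteins, read 8.57 on sgTetOmut and 7.41 on each other array, and USP18, which curbs the receptor, read 8.6, 7.21 and 7.21. The other 10 of the 12 measured genes of the receptor and its signalling were under 2-fold apart in every pair, among them IRF7 at 4.22, 3.66 and 3.38. IFNB1, which encodes interferon beta, was the 1 interferon gene of 14 measured that was above background, at 5.98 on sgTetOmut, 3.53 on sgTetO and 3.40 on sgIL1RN1~3. On sgTetOmut it was over 2-fold above both other arrays (0.385% of all genes), where it lay at the edge of the Bacillus range. IRF9 and USP18 were equal on sgTetO and sgIL1RN1~3, and neither showed the second step of PLSCR1.

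Markers of other cell types were also read. Of 7 measured blood and endothelial markers, 3 were above background on some array, CD14 (4.23, 3.83 and 3.89), PECAM1 (3.71, 3.30 and 3.08) and CDH5 (3.74, 3.53 and 3.74), while CD3E, PTPRC, LYZ and VWF were not above it on any. Summed on the linear scale, the 7 gave 69.9 on sgTetOmut and 62.2 on each other array. Of 6 fibroblast markers, 5 were above background, among them COL1A1 (7.08, 7.14 and 7.30) and COL3A1 (7.16, 7.06 and 7.16), and the sums were 443, 454 and 464. The highest sum of the first list was thus on the array where the members were highest, and its part in their levels was not tested. Neither list held a gene 2-fold apart.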

How the data were processed

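Total RNA from 3 transfected HEK293T samples was measured on 1 single-channel array each. The authors deposited log2 values of 22277 probe sets, a unit taken from their range (1.36 to 14.52). The submitters' processing notes name the affy package; for its version, background correction and summary, nothing is given in the sources used here. Sorted values of the arrays lay within 0.104 of their common mean. GEO's array annotation gave 1 symbol for 19070 sets, several for 1043 (not named) and none for 2164; the gene table of GRCh38.p14 held all 7 members.

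Each group held 1 array, so differences were counted past 1 log2 unit where the higher value exceeded the highest of 27 Bacillus sets, with no test; precision is limited by the number of arrays. The set with the highest mean stood for its gene in lists. The members, lists and limits were chosen with earlier results of these data known; the Bacillus bound, the 0.5 limit and the motif with 1 spacer base were added after the values or sequences were seen. Named genes were the members, up to 3 genes per list with the largest sgTetO difference, genes past 2-fold, 3 neighbours on each side and the 3 nearest profiles, given here only for members above background on all arrays; TNFRSF10B, XIAP, IRF7, NEFL, LHX1, the marker genes at background and the stepped sets were named besides, for their role or their count, with their values in view. TNFRSF10C and TNFRSF10D were named for their role too, with their values in view. Scaling, minimum level, size limit, an offset of 16 and the choice of probe set were varied. Counting was tested on simulated data in which only bright probe sets were lowered, so the test does not cover dim sets such as those of APOL6 and XAF1. R 4.3.3 with limma 3.58.1 and Python 3.11.15 with pandas 2.3.3 were used.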

Additional observations from a re-analysis of the deposited data

How the results depend on the processing

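No paired analysis was possible because each guide was measured on 1 array. No result changed sign among called values. Quantile and cyclic loess scaling left every count, member difference and list median within 0.27 log2 units or 1.5 times of the value as deposited. Dropping the minimum level did so for the counts, the mean of all sets of a gene for member differences and list medians, and the set highest on sgTetO for member differences; 0.27 is the SD of the sgIL1RN1~3 minus sgTetO difference over genes above background. Counts of member sets depended on the size limit and on dim sets. On sgTetOmut the count of sets 2-fold above both others, 2, became 6 at 1.5-fold, 1 at 3-fold, 0 with the median of named sets as minimum level, 0 with 16 added to the linear values and 0 with values raised to the highest Bacillus set, an alternative added after the values were seen. The count lower on sgTetO, 3, became 7 at 1.5-fold and 1 under each of the other 4. The count lower on sgIL1RN1~3, 4, became 1 at 3-fold and 2 with the median as minimum, with 16 added and with raised values. The count apart between sgIL1RN1~3 and sgTetO, 0, became 2 at 1.5-fold, the PLSCR1 sets. Adding 16 damped the differences of the dim genes APOL1, APOL6 and XAF1: XAF1 became -0.54 on sgTetO and APOL6 -0.62. It also moved the median of the interferon genes linked to cell death on sgIL1RN1~3 from -1.83 to -1.42. Of the member differences, 99 kept within 0.27 and these 6 did not.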

Other observations

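TP53I3, a p53 target, read 5.19 on sgTetOmut, 5.0 on sgTetO and 6.16 on sgIL1RN1~3, 1.16 log2 units above sgTetO, the 1 gene of 11 measured in its list that was 2-fold apart in a pair of arrays, against 0.109% of all genes higher in this one. BAX, a pore-forming protein of the BCL2 family named here after its values were seen, read 6.44, 6.55 and 7.04 by one set and 5.23, 5.19 and 5.92 by the other, under the 2-fold limit. Other death genes lay on the other side of 0 for sgIL1RN1~3 minus sgTetO by their brightest set. Among them were HRK at -0.37, CYCS at -0.36, NAIP at -0.36 and CASP8 at -0.31, also named after their values were seen. The other HRK sets, above background too, lay at -0.06 and 0.07. The 11 measured genes of the p53 list had a median of 0.25 for sgIL1RN1~3 minus sgTetO, against 0.01 over all genes, and -0.03 for sgTetO minus sgTetOmut. The 5' control sets of ACTB and GAPDH were also higher on this array, by 0.95 and 0.84 against sgTetO, and their part was not tested.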
